A study of Mus musculus with 17 samples.

Results

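WT early HCC cells and normal liver cells of mice were compared across all genes by poly(A) RNA sequencing, with 3 libraries in each group, which is 6 of the 17 libraries of the series. The libraries were chosen by their labels alone. The first group holds early hepatocellular carcinoma (HCC) cells taken from DEN-induced mice, with the genotype WT and Mef2d intact; DEN is the usual short form of diethylnitrosamine, a carcinogen of the liver. The second group holds normal liver cells with the genotype "Normal", and no DEN is named for it. The extraction protocol, shared by both groups, speaks of hepatocytes and early HCC cells lysed in TRIzol. The sources used here do not give strain, age, sex, DEN dose, any culture or sorting of the cells, or the number of mice behind the libraries. The deposited sheet with the counts of early HCC cells with and without Mef2d, whose WT values are the ones used here, bears a title with the terms H22, AML and sh vs ctrl, which the labels do not explain. A hepatoma line of mice is called H22. Carcinogen, tumour state and the source of the cells differ together between the groups and cannot be told apart. Nor do the labels say that the 3 libraries of a group came from separate mice or cultures. The p-values therefore rest on how far libraries of a group differ, and that spread may be technical.

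Hepatocytes, the main cells of the liver, hold their identity through a network of transcription factors in which HNF4A, FOXA2 and nuclear receptors switch on each other and the genes of secreted proteins, bile acid synthesis and detoxification. The cells of bile ducts share part of this network and add SOX9 and the keratins KRT7 and KRT19. In liver tumours this network often weakens, while fetal genes, proliferation genes and genes of glucose and amino acid uptake are known to come up.

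Library totals were 16604606, 17615570 and 17423039 expected counts in WT early HCC, against 18467849, 18469840 and 18637765 in normal liver. Levels are given as CPM, counts per 1000000 counts of the scaled library total, and set levels of one gene against the same gene in the other group, since CPM is not per length. A gene was called when its edgeR quasi-likelihood test gave a Benjamini-Hochberg adjusted p under 0.05. A group with a total of 3 counts or fewer is at the floor: with 0 counts the fold is a lower bound, and with 1 to 3 counts a ratio of counts with a 95% interval is given, which covers counting error only. An SE is the size of the log2 fold change divided by the square root of the edgeR F statistic. At the floor the fitted log2 fold change and its SE rest on a small count that edgeR adds. There the bound or the interval, and not the SE, shows how uncertain the fold is. Every gene of the table had a count in at least 1 early HCC library with or without Mef2d, so genes read in normal liver alone do not appear and the numbers of lower genes are minimums. A gene could also pass the filter on low counts through the group where it was high alone, and such a gene had to differ, so counts over a list describe its tested members. These are bulk libraries, in which fewer cells of a type and less RNA per cell cannot be told apart.

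The labels were first set against defining markers. Hnf4a, the central hepatocyte factor, was near 0 in WT early HCC, at 0.0594, 0.280 and 0.112 CPM in libraries of WT early HCC, against 123, 114 and 119 CPM in those of normal liver. Slc2a3, a high-affinity glucose transporter that adult hepatocytes hardly use, was at 1387, 1354 and 1356 CPM in libraries of WT early HCC, against 0.440, 0.441 and 0.490 CPM in those of normal liver. The groups did not overlap for either gene, and libraries of a group lay close together beside the difference. Such separation was common in these data: the groups did not overlap in 67 of 76 tested ribosomal protein genes. Albumin, the most abundant product of adult hepatocytes, was low in both: Alb was at 0, 0 and 0.393 CPM in libraries of WT early HCC, against 2.64, 2.42 and 2.12 CPM in those of normal liver. The libraries labelled early HCC thus had Hnf4a and albumin near 0, and those labelled normal liver had Hnf4a well above 0 but little albumin. Neither pattern is that of whole adult liver, so which cells the labels stand for is in doubt, and rose or fell means only higher or lower than in the libraries labelled normal liver.

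Of 12698 genes tested, 5568 were higher in WT early HCC (43.8% of those tested) and 5498 were lower (43.3%), 11066 in all (87.1%). Counts of higher and lower genes over a list are to be read beside these shares. A list that splits near them shows nothing particular to its members. With a change of at least 2-fold required as well, 2576 were higher (20.3%) and 2629 were lower (20.7%), 5205 in all (41.0%). Over all tested genes the log2 fold change had a median of 0.01, and the median of its absolute value was 0.79. Replicates were close, with a common biological coefficient of variation of 0.0371, so small differences passed the test and most genes were called. Called genes with a log2 fold change of at least 5 in size numbered 692 higher and 595 lower. Mef2d itself, a gene of the MEF2 transcription factors, was at 100.3 ± 3.24 CPM in WT early HCC and 56.9 ± 5.06 CPM in normal liver (SD, n = 3 each), 1.76-fold higher (log2 fold change 0.82, SE 0.06, edgeR adjusted p = 3.53e-10).

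**Figure D1:**
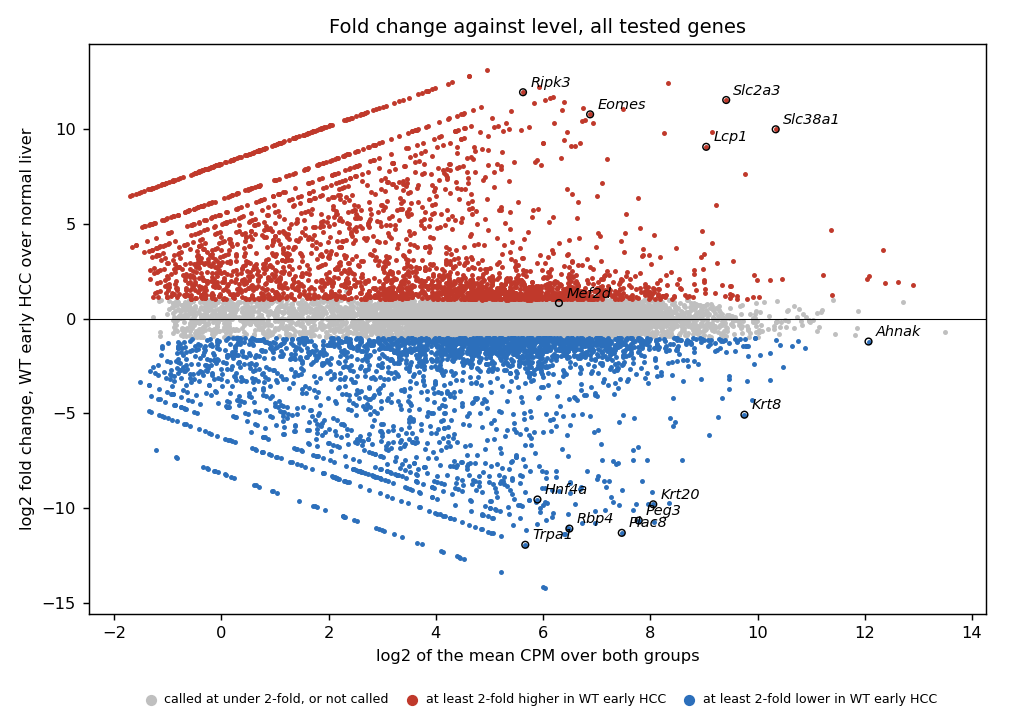
Log2 fold change of WT early HCC over normal liver for each of 12698 tested genes (vertical axis) against log2 of the mean CPM over both groups (horizontal axis); each point is 1 gene, red is at least 2-fold higher in WT early HCC, blue at least 2-fold lower, and named genes are ringed. Red and blue points are about equally many, 2576 against 2629, and genes with 0 counts in a group form the slanted edges, where the fold depends on the level alone.

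Most tested hepatocyte transcription factors fell in WT early HCC. Of 32 listed factors, 29 had a row and 23 passed the filter on low counts; 4 rose, 18 fell and 1 was not called. Among all tested genes 43.8% rose and 43.3% fell. The median log2 fold change of the tested factors was -3.58, beside 0.01 over all tested genes. Hnf4a averaged 0.151 ± 0.115 CPM in WT early HCC and 119 ± 4.42 CPM in normal liver (SD, n = 3 each), 789.6-fold lower in WT early HCC (log2 fold change -9.54, SE 0.13, edgeR adjusted p = 1.4e-19). Foxa2, a pioneer factor that opens liver enhancers, was at 0, 0.0560 and 0.112 CPM in libraries of WT early HCC, against 36.4, 34.6 and 33.7 CPM in those of normal liver. Its fold was a ratio of scaled counts of 611, 95% interval 209 to 2965, lower in WT early HCC. Ppara, the fatty acid receptor of hepatocytes, had 0 counts in all 3 WT early HCC libraries and 10.5, 9.47 and 9.92 CPM in normal liver, at least 174-fold lower in WT early HCC (log2 fold change -10.47, SE 0.39, edgeR adjusted p = 1.28e-12).

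Other factors of the network fell as well. The zinc finger factor Gata4 had 0.0571 CPM in WT early HCC against 18.8 CPM in normal liver, and its relative Gata6 had 0.0374 CPM in WT early HCC against 12.3 CPM in normal liver. Nr1h4, the bile acid receptor, had 1.05 CPM in WT early HCC against 108 CPM in normal liver, and Rxra, the partner of many nuclear receptors, had 0.685 CPM in WT early HCC against 36.8 CPM in normal liver. Sox9, the duct and progenitor factor, was at 0.119, 0.0560 and 0.112 CPM in libraries of WT early HCC, against 55.003, 53.2 and 51.9 CPM in those of normal liver, 558-fold lower in WT early HCC. Onecut2, a factor of liver and duct development, had 17.5 CPM in WT early HCC against 85.9 CPM in normal liver. Atf5, a stress-related leucine zipper factor, had 28.99 CPM in WT early HCC against 209.5 CPM in normal liver. These 7 genes were called lower by edgeR, where 87.1% of all tested genes were called in one direction or the other.

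A few factors went the other way. Tbx3, a T-box repressor, was at 25.3, 25.9 and 23.7 CPM in libraries of WT early HCC, against 0.0551, 0 and 0 CPM in those of normal liver, with a ratio of scaled counts of 1363, 95% interval 244 to 53893, higher in WT early HCC (log2 fold change 9.95, SE 0.25, edgeR adjusted p = 3.71e-16). Nr2f1, an orphan nuclear receptor, stood at 13.8, 11.1 and 13.7 CPM in WT early HCC and had 0 counts in all normal liver libraries, at least 234-fold higher. Cebpa, a leucine zipper factor of liver and myeloid cells, rose, with 3.82 CPM in WT early HCC against 0.677 CPM in normal liver. Its relative Cebpb rose too, with 109 CPM in WT early HCC against 55.3 CPM in normal liver. Srebf1, a regulator of lipid synthesis, was not called, at 116 ± 4.40 CPM in WT early HCC and 111 ± 4.97 CPM in normal liver (SD, n = 3 each; edgeR adjusted p = 0.136).

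The sequences before the starts of Hnf4a and Krt8 are shown because Hnf4a is the central factor that fell and Krt8 a main hepatocyte keratin that fell. They are RefSeq promoters of build GRCm38.p6, the 250 bases before a start site, read 5′ to 3′ on the gene's strand, with each CG, the dinucleotide that DNA methylation acts on, in capitals; a CG reads the same on both strands. Hnf4a has a pair of start sites on the plus strand, at chr2:163506607-163506856 and chr2:163546905-163547154, which hold 3 and 4 CG. The Krt8 window lies on the minus strand at chr15:102004343-102004592 and holds 3 CG. With the 50 bases after the start added, the counts were 4, 4 and 6, below the median of 20 over the tested genes with a promoter in the table, of which 80.4% held at least 10. Over all 27025 promoters of the table the median was 7 and 43.9% held at least 10.
Hnf4a start site 1: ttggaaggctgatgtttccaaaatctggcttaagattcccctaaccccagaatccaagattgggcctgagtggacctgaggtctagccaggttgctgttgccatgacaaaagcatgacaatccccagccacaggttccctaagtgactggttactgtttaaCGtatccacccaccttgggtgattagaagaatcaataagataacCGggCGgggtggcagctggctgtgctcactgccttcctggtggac
Hnf4a start site 2: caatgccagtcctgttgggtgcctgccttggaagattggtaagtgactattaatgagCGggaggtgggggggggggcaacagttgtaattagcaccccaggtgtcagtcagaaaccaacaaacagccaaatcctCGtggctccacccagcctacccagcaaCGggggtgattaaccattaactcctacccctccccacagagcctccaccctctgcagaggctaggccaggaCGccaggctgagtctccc
Krt8: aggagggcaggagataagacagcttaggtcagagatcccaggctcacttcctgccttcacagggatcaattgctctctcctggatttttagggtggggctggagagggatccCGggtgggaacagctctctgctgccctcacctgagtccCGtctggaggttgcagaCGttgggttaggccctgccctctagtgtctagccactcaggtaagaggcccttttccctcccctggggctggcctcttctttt
A comparison of CG counts between changed and other genes was void, because only 74.4% to 78.7% of the changed sets had a promoter in the table.

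Products of hepatocytes could be followed for few genes. Of 52 listed secreted and metabolic products, 14 had no row and 25 stayed under the filter, so 13 were tested; 3 rose, 9 fell and 1 was not called. Summed over the rows, the list gave 70.5 to 76.9 CPM in WT early HCC libraries and 233 to 248 CPM in normal liver libraries. Rbp4, the retinol carrier of plasma, made up most of the normal liver sum, with 0.0760 CPM in WT early HCC against 179.8 CPM in normal liver. Apob, the protein of very low density lipoprotein, was at 0.0594, 0.112 and 0.393 CPM in libraries of WT early HCC, against 9.52, 10.1 and 9.26 CPM in those of normal liver, 51.1-fold lower in WT early HCC. Afp, the fetal counterpart of albumin and a marker of liver tumours, was higher in WT early HCC, at 47.2, 40.8 and 44.3 CPM in libraries of WT early HCC, against 1.10, 1.05 and 1.14 CPM in those of normal liver (log2 fold change 5.32, SE 0.11, edgeR adjusted p = 4.14e-17). Cyp7a1, the rate-limiting enzyme of bile acid synthesis, was low in both but higher in WT early HCC, with 1.77 CPM in WT early HCC against 0.0728 CPM in normal liver.

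All 5 tested keratins of simple epithelium fell. They were at least 2-fold lower in WT early HCC, with a median log2 fold change of -6.15, and the 5 summed with Krt23 to 126 to 137 CPM in WT early HCC libraries and 4851 to 5009 CPM in normal liver libraries. Krt7, a keratin of bile ducts, was at 0.297, 0.224 and 0.562 CPM in libraries of WT early HCC, against 416, 404 and 408 CPM in those of normal liver, 1134-fold lower in WT early HCC (log2 fold change -10.11, SE 0.09, edgeR adjusted p = 2.18e-21). Krt20, a keratin of gut and bladder lining, was at 0.475, 0.336 and 0.955 CPM in libraries of WT early HCC, against 534, 537 and 523 CPM in those of normal liver, 903-fold lower. Krt8, the partner of Krt18 in hepatocytes, was still read in WT early HCC, at 45.2, 53.5 and 50.9 CPM in libraries of WT early HCC, against 1720.1, 1618 and 1700.3 CPM in those of normal liver, 33.7-fold lower. Krt23 had 0.475, 0.224 and 0 CPM in WT early HCC and 0 counts in normal liver, and was not tested.

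**Figure D2:**
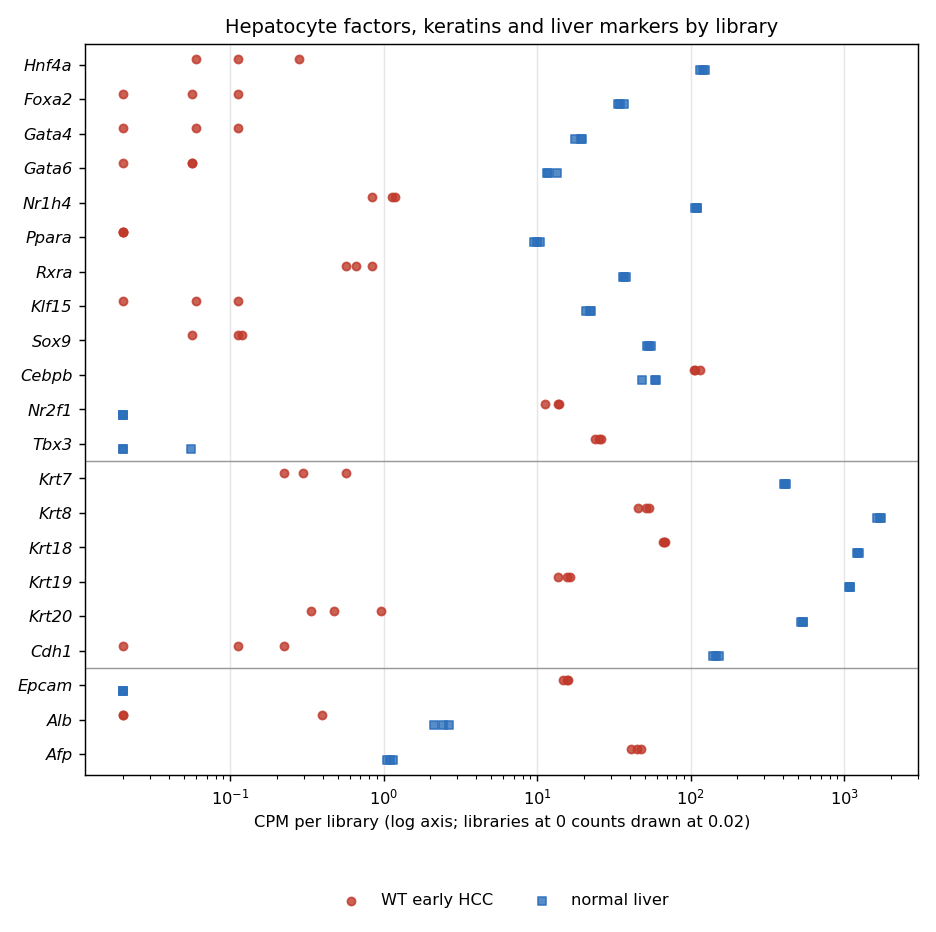
CPM per library on a log axis for hepatocyte factors (top), keratins and E-cadherin (middle) and Epcam, Alb and Afp (bottom); red circles are the 3 WT early HCC libraries and blue squares the 3 normal liver libraries, with libraries at 0 counts drawn at 0.02 CPM. Hnf4a, Foxa2 and Krt7 sit at under 1 CPM in each WT early HCC library and far higher in normal liver, while Nr2f1, Tbx3, Epcam and Afp show the opposite order.

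Most tested junction and polarity genes fell as well. Of 45 listed, 31 were tested: 22 fell and 9 rose, with a median log2 fold change of -2.49. Among all tested genes 43.3% fell and 43.8% rose. Cdh1, which encodes E-cadherin, the adhesion molecule of epithelia, was at 0, 0.112 and 0.225 CPM in libraries of WT early HCC, against 145, 139 and 153 CPM in those of normal liver, 1297-fold lower in WT early HCC (log2 fold change -10.23, SE 0.15, edgeR adjusted p = 2.37e-19). Cldn2, a tight junction claudin, had 0.133 CPM in WT early HCC against 251 CPM in normal liver. Patj, a polarity scaffold, had 0 counts in all WT early HCC libraries and 34.6, 36.5 and 32.1 CPM in normal liver, at least 602-fold lower. Lamb3, a laminin chain of epithelial basement membrane, was at 4.01 CPM in WT early HCC against 433 CPM in normal liver.

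Some genes of the junction and polarity list rose, not all of them parts of junctions. Epcam, the epithelial adhesion molecule, was at 15.9, 14.6 and 15.5 CPM in WT early HCC with 0 counts in normal liver, at least 279-fold higher (log2 fold change 11.10, SE 0.33, edgeR adjusted p = 8.63e-14). Grhl2, an epithelial transcription factor, was at 28.8, 28.6 and 29.6 CPM in libraries of WT early HCC, against 0.220, 0.496 and 0.381 CPM in those of normal liver, 79.3-fold higher. Evpl, a plaque protein, averaged 36.7 CPM in WT early HCC against 0.969 CPM in normal liver. The plaque protein Pkp3 had 7.59 CPM in WT early HCC against 0.219 CPM in normal liver, and the tight junction scaffold Tjp3 had 5.80 CPM in WT early HCC against 0.0184 CPM in normal liver. Spp1, osteopontin, a matrix protein of ducts and macrophages, had 1337 CPM in WT early HCC against 164 CPM in normal liver (log2 fold change 3.03, SE 0.04, edgeR adjusted p = 7.22e-20).

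Mesenchymal genes split in both directions. Of 51 listed genes 33 were tested: 14 rose and 19 fell, with a median log2 fold change of -0.28. Among all tested genes 43.8% rose and 43.3% fell. Repressors of the epithelial state were divided: Twist1 was at 33.4, 32.2 and 32.3 CPM in libraries of WT early HCC, against 0.110, 0.0551 and 0 CPM in those of normal liver, with a ratio of scaled counts of 594, 95% interval 203 to 2883, higher in WT early HCC. Zeb2 was at 43.6, 42.7 and 40.4 CPM in libraries of WT early HCC, against 0.0551, 0.110 and 0.109 CPM in those of normal liver, 462-fold higher, and Snai1 had 13.5 CPM in WT early HCC against 0.238 CPM in normal liver. Snai2 went the other way, at 0.237, 0.168 and 0.112 CPM in libraries of WT early HCC, against 53.2, 57.9 and 56.2 CPM in those of normal liver, 323-fold lower in WT early HCC (log2 fold change -8.29, SE 0.14, edgeR adjusted p = 2.05e-18).

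Matrix and adhesion genes of this list were split too. Cdh2, N-cadherin, which hepatocytes and mesenchymal cells both use, fell to 0.534, 0.504 and 0.955 CPM in WT early HCC, against 349, 355 and 361 CPM in normal liver. The basement membrane collagen Col4a1 was at 1.71 CPM in WT early HCC against 338 CPM in normal liver, and its partner Col4a2 at 0.720 CPM in WT early HCC against 258 CPM in normal liver. Cav1, the coat protein of caveolae, had 1.74 CPM in WT early HCC against 313 CPM in normal liver. Fn1, fibronectin, was higher at 1058, 1098 and 1152 CPM in libraries of WT early HCC, against 345, 336 and 339.6 CPM in those of normal liver, 3.24-fold higher in WT early HCC (log2 fold change 1.70, SE 0.04, edgeR adjusted p = 7.42e-17). Tpm2, a muscle tropomyosin, had 58.3 CPM in WT early HCC against 0.110 CPM in normal liver. The fibroblast collagen Col1a1 stayed low in both groups, at 2.44 CPM in WT early HCC against 0.238 CPM in normal liver, and Pdgfrb was at the floor in both.

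Markers of other cell types were counted for whole lists. Of 40 genes shared by leukocytes, 25 were tested: 16 rose, 5 fell and 4 were not called. Over all tested genes 43.8% rose and 43.3% fell. Cd37, Inpp5d and Plek were among the members that fell. The list summed to 1642 to 1666 CPM in WT early HCC libraries, most of it from Lcp1, and 65.5 to 71.8 CPM in normal liver libraries. Lcp1, L-plastin, an actin bundler of blood cells and of many tumour cells, was at 1038, 1044 and 1076 CPM in libraries of WT early HCC, against 2.53, 1.71 and 1.69 CPM in those of normal liver, 533-fold higher in WT early HCC (log2 fold change 9.05, SE 0.07, edgeR adjusted p = 7.98e-22). Itgb2, the common chain of leukocyte integrins, was at 113, 119 and 120.5 CPM in libraries of WT early HCC, against 0.440, 0.385 and 0.218 CPM in those of normal liver, 337-fold higher. Arhgap30, a regulator of small GTPases, was at 198, 196 and 186 CPM in libraries of WT early HCC, against 0.496, 0.330 and 0.218 CPM in those of normal liver, 555-fold higher. The groups did not overlap in 21 of the 25 tested genes of the list, these 3 among them. Such separation was common in these data, as in 67 of 76 tested ribosomal protein genes, and is not particular to this list.

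The marker that defines leukocytes stayed near 0. Ptprc, which encodes the common leukocyte antigen, was at 0, 0.0560 and 0.225 CPM in libraries of WT early HCC, against 0.551, 0.826 and 0.599 CPM in those of normal liver, below the filter. In the Kupffer cell libraries of the same series, whose table was normalised apart, Ptprc ran from 195 to 517 CPM (8 libraries, median 382) and Lcp1 from 667 to 1642 CPM. Cd53, Was, Ikzf1 and Itgal also stayed under the filter. Csf1r, the macrophage growth factor receptor, was not called, at 0.454 ± 0.196 CPM in WT early HCC and 0.787 ± 0.0343 CPM in normal liver (SD, n = 3 each; edgeR adjusted p = 0.0612). Adgre1, a macrophage surface marker, was at 0.0594, 0.0560 and 0.169 CPM in libraries of WT early HCC, against 0.0551, 0.110 and 0 CPM in those of normal liver, and Spi1, the master factor of myeloid cells, at 0.189 CPM in WT early HCC against 0.347 CPM in normal liver; neither was tested. What part other cells played in the changes was not tested.

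Other cell type lists were counted in the same way. Of 43 T and NK cell genes, 12 were tested, 10 rose and 2 were not called; the list summed to 302 to 308 CPM in WT early HCC libraries and 15.9 to 17.3 CPM in normal liver libraries, most of it from Eomes. Eomes, a T-box factor of cytotoxic lymphocytes and of the early embryo, was at 237, 234 and 234 CPM in libraries of WT early HCC, against 0.220, 0.110 and 0.0545 CPM in those of normal liver, 1833-fold higher in WT early HCC (log2 fold change 10.77, SE 0.11, edgeR adjusted p = 4.07e-21). Cd28, a T cell costimulator, was at 10.5, 10.6 and 9.33 CPM in libraries of WT early HCC, against 0, 0 and 0.0545 CPM in those of normal liver. Eomes and Cd28 passed the filter on low counts through WT early HCC alone, which fixed their direction. The number of members that rose is therefore no measure of the list. Cd3e, the T cell receptor constant chains and Thy1 had no row, while Cd4, Cd5, Zap70 and Il7r stayed under the filter. Of 23 B cell genes 3 were tested and 1 was called, Blnk, with 42.3 CPM in WT early HCC against 52.3 CPM in normal liver.

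Of 44 myeloid genes 16 were tested, 12 rose and 2 fell, and the sum was 59.4 to 61.03 CPM in WT early HCC libraries and 96.8 to 101.3 CPM in normal liver libraries. Cd14, the coreceptor for bacterial lipopolysaccharide, fell to 2.49, 2.46 and 2.75 CPM, against 86.9, 80.1 and 84.4 CPM in normal liver, 32.6-fold lower. Ly6c1 was at 20.2, 20.4 and 21.97 CPM in libraries of WT early HCC, against 0.110, 0.165 and 0.163 CPM in those of normal liver, though its near-identical copies make single Ly6c values uncertain. Of 24 endothelial genes 7 were tested, 6 rose and 1 fell, with a sum of 84.6 to 96.4 CPM in WT early HCC libraries and 25.3 to 25.7 CPM in normal liver libraries. Stab1, a scavenger receptor of sinusoidal cells, had 52.04 CPM in WT early HCC against 8.39 CPM in normal liver and Egfl7, a vessel matrix protein, had 15.2 CPM in WT early HCC against 0.440 CPM in normal liver, while the defining marker Pecam1 averaged 0.153 CPM in WT early HCC against 0.0182 CPM in normal liver. The other defining marker, Cdh5, averaged 0.268 CPM in WT early HCC against 0.0184 CPM in normal liver, and neither was tested. Of 13 stellate cell genes 3 were tested and 3 rose, among them Ngfr, a nerve growth factor receptor, with a ratio of scaled counts of 1083, 95% interval 194 to 42826, higher in WT early HCC. Of 30 mast, erythroid and megakaryocyte genes 6 were tested, 5 rose and 1 fell; Gata1 had no row, and Mcpt8, a basophil protease, had 10.4 CPM in WT early HCC against 1.06 CPM in normal liver.

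The sequences before Eomes and Lcp1 are shown because these genes stood among the largest gains with a cell type label. Both lie on the plus strand of GRCm38.p6, Eomes at chr9:118477939-118478188 and Lcp1 at chr14:75130873-75131122, printed like the windows above with CG in capitals. For Lcp1 only the first listed start site is shown. They hold 8 and 16 CG in 250 bases, and 10 and 19 with the 50 bases after the start. Like those of Hnf4a and Krt8, the latter counts lie below the median of 20 over tested genes with a promoter.
Eomes: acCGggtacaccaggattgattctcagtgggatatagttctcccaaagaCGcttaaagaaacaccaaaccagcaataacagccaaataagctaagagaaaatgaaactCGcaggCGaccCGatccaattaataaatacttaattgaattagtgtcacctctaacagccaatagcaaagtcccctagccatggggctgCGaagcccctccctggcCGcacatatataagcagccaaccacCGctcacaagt
Lcp1: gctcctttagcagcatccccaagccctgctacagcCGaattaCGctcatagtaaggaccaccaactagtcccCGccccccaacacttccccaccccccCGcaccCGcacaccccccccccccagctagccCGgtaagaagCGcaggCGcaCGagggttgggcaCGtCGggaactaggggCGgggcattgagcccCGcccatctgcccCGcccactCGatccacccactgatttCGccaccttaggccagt

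**Figure D3:**
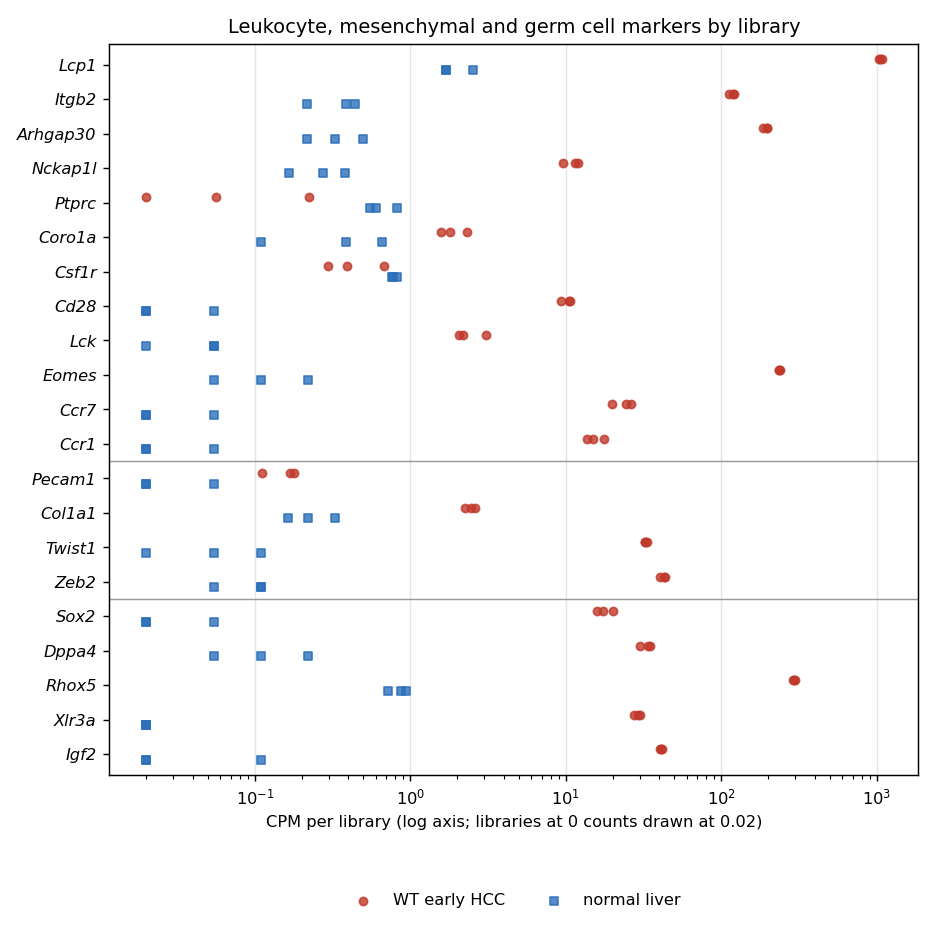
CPM per library on a log axis for leukocyte genes (top), endothelial and mesenchymal genes (middle) and pluripotency, germ cell and imprinted genes (bottom); red circles are the 3 WT early HCC libraries and blue squares the 3 normal liver libraries, with libraries at 0 counts drawn at 0.02 CPM. Lcp1, Eomes, Twist1 and Rhox5 are high in each WT early HCC library, while Ptprc, Csf1r and Pecam1 lie under 1 CPM in all 6 libraries.

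Part of the genes of stem cells and germ cells rose. Of 24 pluripotency and germ cell genes 8 were tested; 7 rose and 1 fell. Those that rose sat under 1 CPM in each normal liver library and passed the filter through WT early HCC alone, which fixed their direction. Sox2, a factor of pluripotent and neural stem cells, was at 20.1, 17.5 and 15.8 CPM in libraries of WT early HCC, against 0.0551, 0 and 0 CPM in those of normal liver, with a ratio of scaled counts of 971, 95% interval 174 to 38383, higher in WT early HCC. Dppa4, a chromatin protein of pluripotent cells, was at 34.7, 34.1 and 30.01 CPM in libraries of WT early HCC, against 0.110, 0.220 and 0.0545 CPM in those of normal liver, 257-fold higher (log2 fold change 7.93, SE 0.19, edgeR adjusted p = 1.98e-16). Xlr3a, an X-linked gene with near-identical copies that make its single value uncertain, was at 27.5, 29.1 and 29.8 CPM in WT early HCC with 0 counts in normal liver, at least 526-fold higher. Mael, a germ cell gene of transposon silencing, averaged 7.48 CPM in WT early HCC against 0 CPM in normal liver. Rhox5, a homeobox gene of the X chromosome, had 291, 296 and 292 CPM in libraries of WT early HCC, against 0.936, 0.716 and 0.872 CPM in those of normal liver.

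Pou5f1, the central factor of pluripotent cells, stayed near 0, at 0.237, 0.224 and 0.281 CPM in libraries of WT early HCC, against 0, 0 and 0.109 CPM in those of normal liver, and was not tested. Lin28b, a fetal RNA-binding protein, was lower, at 0.0594, 0.280 and 0.0562 CPM in libraries of WT early HCC, against 6.55, 6.72 and 8.12 CPM in those of normal liver, 54.1-fold lower in WT early HCC. Of 27 neural genes 11 were tested, 6 rose and 4 fell. Nes, the intermediate filament nestin, was at 74.7, 74.7 and 65.4 CPM in libraries of WT early HCC, against 0.0551, 0.0551 and 0.0545 CPM in those of normal liver, with a ratio of scaled counts of 1304, 95% interval 446 to 6326, higher in WT early HCC. Ncam1, a neural adhesion molecule also found on bile duct cells, fell to 2.55, 2.58 and 3.43 CPM, against 154, 147 and 142 CPM in normal liver, 51.8-fold lower. Of 20 placental genes 2 were tested; Plac1 rose, with 2.12 CPM in WT early HCC against 0.0367 CPM in normal liver, and Psg17 fell, with 0.246 CPM in WT early HCC against 2.14 CPM in normal liver.

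HOX genes, which set position along the body axis, were read at low levels. Of 39 listed, 13 were tested, with 9 higher, 3 lower and 1 not called, beside 43.8% higher and 43.3% lower over all tested genes. Hoxd8 was at 10.9, 9.97 and 9.95 CPM in libraries of WT early HCC, against 0.0551, 0 and 0 CPM in those of normal liver, with a ratio of scaled counts of 560.4, 95% interval 100.1 to 22174, higher in WT early HCC, and Hoxd4 was at 6.65, 5.83 and 5.96 CPM with 0 counts in normal liver, at least 112-fold higher. Hoxb13 went the other way, with 0.0187 CPM in WT early HCC against 8.82 CPM in normal liver, as did Hoxc6, with 0.168 CPM in WT early HCC against 10.02 CPM in normal liver. Genes of 1 cluster differed in direction, since Hoxb7 had 13.1 CPM in WT early HCC against 1.52 CPM in normal liver (log2 fold change 3.10, SE 0.14, edgeR adjusted p = 1.17e-12).

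Imprinted genes, read from only the maternal or paternal copy, moved both ways: of 18 tested, 9 rose, 8 fell and 1 was not called. That split was near the 43.8% higher and 43.3% lower over all tested genes. Igf2, the fetal growth factor read from the paternal copy, was at 40.1, 40.8 and 41.7 CPM in libraries of WT early HCC, against 0.110, 0 and 0 CPM in those of normal liver, with a ratio of scaled counts of 1118, 95% interval 309 to 9239, higher in WT early HCC (log2 fold change 9.87, SE 0.21, edgeR adjusted p = 3.38e-17). Its neighbour Cdkn1c, read from the maternal copy, averaged 1.94 CPM in WT early HCC against 0 CPM in normal liver. Phlda2, also maternal, averaged 1.58 CPM in WT early HCC against 0 CPM in normal liver. Tssc4, in the same domain, fell to 0.178, 0.112 and 0.169 CPM, against 24.2, 23.4 and 26.6 CPM in normal liver. Peg3, a zinc finger gene read from the paternal copy, fell to 0.297, 0.280 and 0.225 CPM, against 436, 448 and 439 CPM in normal liver, 1650.5-fold lower. Gnas, a G protein gene, had 981 CPM in WT early HCC against 461 CPM in normal liver. Of 5 tested genes of X inactivation and the Y chromosome 2 rose, 2 fell and 1 was not called. Xist had no row, as the table holds protein-coding mRNA rows only, and Uty, on the Y chromosome, was read in all 6 libraries, at 12.6, 14.003 and 15.4 CPM in libraries of WT early HCC, against 6.83, 8.04 and 6.48 CPM in those of normal liver. Eif2s3y, also on the Y chromosome, stayed under the filter and was not tested, and the other listed Y-linked genes had no row.

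The window before the start of Peg3 is shown because Peg3 had one of the largest falls of an imprinted gene. It lies on the minus strand at chr7:6730420-6730669 of GRCm38.p6 and holds 8 CG, or 13 with the 50 bases after the start. The median over tested genes with a promoter was 20.
Peg3: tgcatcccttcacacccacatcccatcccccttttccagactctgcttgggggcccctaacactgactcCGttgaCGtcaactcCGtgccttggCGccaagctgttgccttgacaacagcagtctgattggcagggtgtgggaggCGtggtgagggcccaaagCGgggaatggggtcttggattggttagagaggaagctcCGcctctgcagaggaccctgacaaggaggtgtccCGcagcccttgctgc

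Genes that write, read or remove DNA methylation and Polycomb marks, or serve in their complexes, were all read well enough to test. Of these 26 genes 16 rose, 8 fell and 2 were not called, where 43.8% of all tested genes rose and 43.3% fell. Their median log2 fold change was 0.38. Jarid2, a cofactor of the Polycomb methyltransferase, was at 159.6, 162 and 162 CPM in libraries of WT early HCC, against 15.6, 16.1 and 14.3 CPM in those of normal liver, 10.5-fold higher (log2 fold change 3.39, SE 0.05, edgeR adjusted p = 5.36e-19). Rnf2, a ubiquitin ligase of the other Polycomb complex, had 137 CPM in WT early HCC against 40.8 CPM in normal liver, and its twin Ring1 had 38.4 CPM in WT early HCC against 11.6 CPM in normal liver. The reader Cbx7 averaged 18.4 CPM in WT early HCC against 1.19 CPM in normal liver. Dnmt3a, a de novo DNA methyltransferase, had 87.1 CPM in WT early HCC against 38.2 CPM in normal liver, and its cofactor Dnmt3l had 1.66, 1.79 and 1.97 CPM in WT early HCC with 0 counts in normal liver. The relative Dnmt3b fell, with 0.115 CPM in WT early HCC against 2.56 CPM in normal liver, as did Phc1, with 12.8 CPM in WT early HCC against 43.5 CPM in normal liver.

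Of 32 tested regulators of entry into the cell cycle, 15 rose, 13 fell and 4 were not called. These counts were near the shares over all tested genes, 43.8% higher and 43.3% lower. Ccnd1, a cyclin of early G1, fell, with 373 CPM in WT early HCC against 1441 CPM in normal liver. Ccnd2, its relative, fell too, with 0.227 CPM in WT early HCC against 72.6 CPM in normal liver. Ccne1, the cyclin of the S phase start, was at 20.4, 20.8 and 18.9 CPM in libraries of WT early HCC, against 3.30, 2.53 and 2.94 CPM in those of normal liver, 6.86-fold higher (log2 fold change 2.77, SE 0.11, edgeR adjusted p = 1.92e-13), and its kinase Cdk2 had 144 CPM in WT early HCC against 33.9 CPM in normal liver. Trp53, the gene of p53, fell to 28.1, 31.7 and 33.8 CPM, against 214, 202 and 215 CPM in normal liver, 6.74-fold lower (log2 fold change -2.75, SE 0.06, edgeR adjusted p = 2.66e-17). Of 33 tested targets of p53, 24 fell and 7 rose, with a median log2 fold change of -1.04. Pmaip1, which encodes the death protein NOXA, had 0.307 CPM in WT early HCC against 97.6 CPM in normal liver, and Tigar, a brake on glycolysis, had 0.113 CPM in WT early HCC against 41.8 CPM in normal liver. Tnfrsf10b, a death receptor, rose, with 109.8 CPM in WT early HCC against 30.1 CPM in normal liver.

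Genes of cell death moved in both directions. Ripk3, the kinase of necroptosis, was at 94.1, 97.9 and 104 CPM in libraries of WT early HCC, against 0.0551, 0 and 0 CPM in those of normal liver, with a ratio of scaled counts of 5406, 95% interval 969.8 to 213557, higher in WT early HCC (log2 fold change 11.93, SE 0.17, edgeR adjusted p = 3.3e-19). Gsdmd, the pore protein of pyroptosis, went the other way, at 0.119, 0.112 and 0.0562 CPM in libraries of WT early HCC, against 124, 121 and 121 CPM in those of normal liver, 1279-fold lower in WT early HCC (log2 fold change -10.22, SE 0.12, edgeR adjusted p = 1.8e-20). Casp4, the caspase that cuts it after sensing lipopolysaccharide, had 0 counts in WT early HCC and 12.003, 12.2 and 10.4 CPM in normal liver, at least 201-fold lower. Bcl2l1, the survival protein BCL-XL, fell to 38.5, 43.1 and 43.2 CPM, against 296, 263 and 276 CPM in normal liver. Bok, a pore-forming relative of BAX, rose, with 34.8 CPM in WT early HCC against 1.15 CPM in normal liver. Over the 30 tested genes of this list, 11 rose, 16 fell and 3 were not called, where 43.8% of all tested genes rose and 43.3% fell.

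Growth factor ligands fell more often than they rose. Of 31 tested ligands 19 fell and 10 rose, with a median log2 fold change of -1.12, where 43.3% of all tested genes fell and 43.8% rose. Tgfa, a ligand of the EGF receptor, was at 0, 0.0560 and 0.112 CPM in libraries of WT early HCC, against 93.2, 95.1 and 96.4 CPM in those of normal liver, with a ratio of scaled counts of 1661, 95% interval 568 to 8055, lower in WT early HCC. Inhbb, an activin subunit, had 0.0561 CPM in WT early HCC against 50.6 CPM in normal liver. Vegfa, the blood vessel growth factor, was higher, at 611, 599.5 and 592 CPM in libraries of WT early HCC, against 144, 141 and 142 CPM in those of normal liver, 4.22-fold higher (log2 fold change 2.08, SE 0.04, edgeR adjusted p = 2.77e-18). Bmp4 had 87.7 CPM in WT early HCC against 9.70 CPM in normal liver, and Fgf15, the bile acid-induced hormone of the gut, had 15.3 CPM in WT early HCC against 0.0365 CPM in normal liver.

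Of 25 tested receptor tyrosine kinases 13 fell, 9 rose and 3 were not called, near the shares over all tested genes, 43.3% lower and 43.8% higher. Egfr, the receptor of Tgfa, was at 0.0594, 0.504 and 0.337 CPM in libraries of WT early HCC, against 92.6, 93.01 and 98.7 CPM in those of normal liver, 316-fold lower in WT early HCC (log2 fold change -8.25, SE 0.14, edgeR adjusted p = 1.99e-18). Epha4, an ephrin receptor, had 0.132 CPM in WT early HCC against 116 CPM in normal liver. Ddr2, a collagen receptor, was at 897, 897 and 879.5 CPM in libraries of WT early HCC, against 94.2, 99.3 and 91.4 CPM in those of normal liver, 9.38-fold higher (log2 fold change 3.23, SE 0.04, edgeR adjusted p = 4.65e-20). Met, the receptor of hepatocyte growth factor, stayed read in both, with 152 CPM in WT early HCC against 249 CPM in normal liver.

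TGF-beta and BMP signalling parts changed in both directions, 10 of 27 tested higher and 15 lower. Shares over all tested genes were 43.8% higher and 43.3% lower. Tgfbr3, the coreceptor betaglycan, was at 96.6, 92.9 and 95.9 CPM in libraries of WT early HCC, against 4.96, 5.07 and 5.50 CPM in those of normal liver, 18.4-fold higher. The signal carrier Smad1 fell to 0, 0.0560 and 0 CPM, against 36.1, 32.5 and 32.1 CPM in normal liver, with a ratio of scaled counts of 1762, 95% interval 316 to 69623, lower in WT early HCC (log2 fold change -10.33, SE 0.24, edgeR adjusted p = 1.09e-16), and the shared Smad4 had 42.5 CPM in WT early HCC against 163 CPM in normal liver. Latent TGF-beta binding proteins split, with Ltbp1 at 14.2 CPM in WT early HCC against 244 CPM in normal liver and Ltbp2 at 44.2 CPM in WT early HCC against 0.0547 CPM in normal liver. Id4, an inhibitor of basic helix-loop-helix factors, had 5.21 CPM in WT early HCC against 0 CPM in normal liver.

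In the Hippo and Notch pathways 10 of 29 tested genes rose and 16 fell, beside 43.8% and 43.3% of all tested genes. Ankrd1, a target of YAP, was at 2.97, 2.69 and 2.64 CPM in libraries of WT early HCC, against 483, 494 and 483 CPM in those of normal liver, 176-fold lower in WT early HCC (log2 fold change -7.46, SE 0.06, edgeR adjusted p = 9.76e-22). Yap1 itself was not called, at 143 ± 3.36 CPM in WT early HCC and 149.8 ± 2.73 CPM in normal liver (SD, n = 3 each; edgeR adjusted p = 0.119). Tead2, one of its DNA-binding partners, was at 29.1, 30.2 and 27.3 CPM in libraries of WT early HCC, against 0, 0 and 0.0545 CPM in those of normal liver, with a ratio of scaled counts of 1579, 95% interval 283 to 62409, higher in WT early HCC. Notch receptors moved in opposite directions: Notch1 fell to 11.2, 10.98 and 9.89 CPM, against 106, 94.9 and 102 CPM in normal liver, while Notch3 had 4.93, 7.23 and 7.47 CPM in WT early HCC and 0 counts in normal liver, at least 119.8-fold higher. The ligand Dll1 rose, with 10.1 CPM in WT early HCC against 0 CPM in normal liver, and the ligand Jag2 fell, with 2.50 CPM in WT early HCC against 24.6 CPM in normal liver.

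Tested cytokine receptors and innate sensors rose more often than they fell, where 43.8% of all tested genes rose and 43.3% fell. Numbers of lower members are minimums, as said above. Of 32 tested receptors 21 rose, 5 fell and 6 were not called, with a median log2 fold change of 0.94. Il1rap, the shared chain of interleukin 1 receptors, was at 18.3, 15.8 and 16.4 CPM in WT early HCC with 0 counts in normal liver, at least 306-fold higher, and Osmr, the oncostatin M receptor, had 8.19 CPM in WT early HCC against 0 CPM in normal liver. Ccr7, a homing receptor of lymphocytes and dendritic cells, was at 19.9, 24.5 and 26.2 CPM in libraries of WT early HCC, against 0.0551, 0 and 0 CPM in those of normal liver, with a ratio of scaled counts of 1291, 95% interval 231 to 51013, higher in WT early HCC. Il1rap, Osmr and Ccr7 passed the filter on low counts through WT early HCC alone, which fixed their direction. Il17ra fell, with 0.682 CPM in WT early HCC against 12.1 CPM in normal liver. Of 27 tested sensors and interferon factors 20 rose, 6 fell and 1 was not called. Aim2, a sensor of cytosolic DNA, was at 124, 117 and 112 CPM in libraries of WT early HCC, against 1.93, 2.75 and 1.85 CPM in those of normal liver, 54.1-fold higher (log2 fold change 5.75, SE 0.09, edgeR adjusted p = 9.54e-19), and Irf5, a factor of myeloid cells, had 13.4 CPM in WT early HCC against 0.183 CPM in normal liver. Tlr3, a sensor of double-stranded RNA, fell, with 0.0375 CPM in WT early HCC against 7.43 CPM in normal liver. Of 17 tested cytokines 8 rose and 7 fell; Il33, an alarm signal of epithelia, had 0.0374 CPM in WT early HCC against 12.3 CPM in normal liver and Cxcl5, which attracts neutrophils, had 0.915 CPM in WT early HCC against 24.9 CPM in normal liver.

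Integrin chains moved in both directions. Of 30 tested adhesion molecules 19 fell and 8 rose, with a median log2 fold change of -0.55, beside 43.3% and 43.8% of all tested genes. Itgb7, a chain of gut-homing integrins, was at 422, 424 and 456 CPM in libraries of WT early HCC, against 6.06, 4.68 and 4.96 CPM in those of normal liver, 82.9-fold higher (log2 fold change 6.37, SE 0.07, edgeR adjusted p = 1.05e-20). Itgb6, an epithelial chain that activates TGF-beta, fell to 0, 0.0560 and 0 CPM, against 47.3, 49.3 and 49.96 CPM in normal liver, with a ratio of scaled counts of 2565, 95% interval 460.0 to 101363, lower in WT early HCC. Vcam1, an adhesion molecule of the immunoglobulin family, had 0.0791 CPM in WT early HCC against 22.9 CPM in normal liver, and its relative Alcam had 0.189 CPM in WT early HCC against 63.3 CPM in normal liver. The common chain Itgb1 was lower by less, with 347 CPM in WT early HCC against 836 CPM in normal liver.

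**Figure D4:**
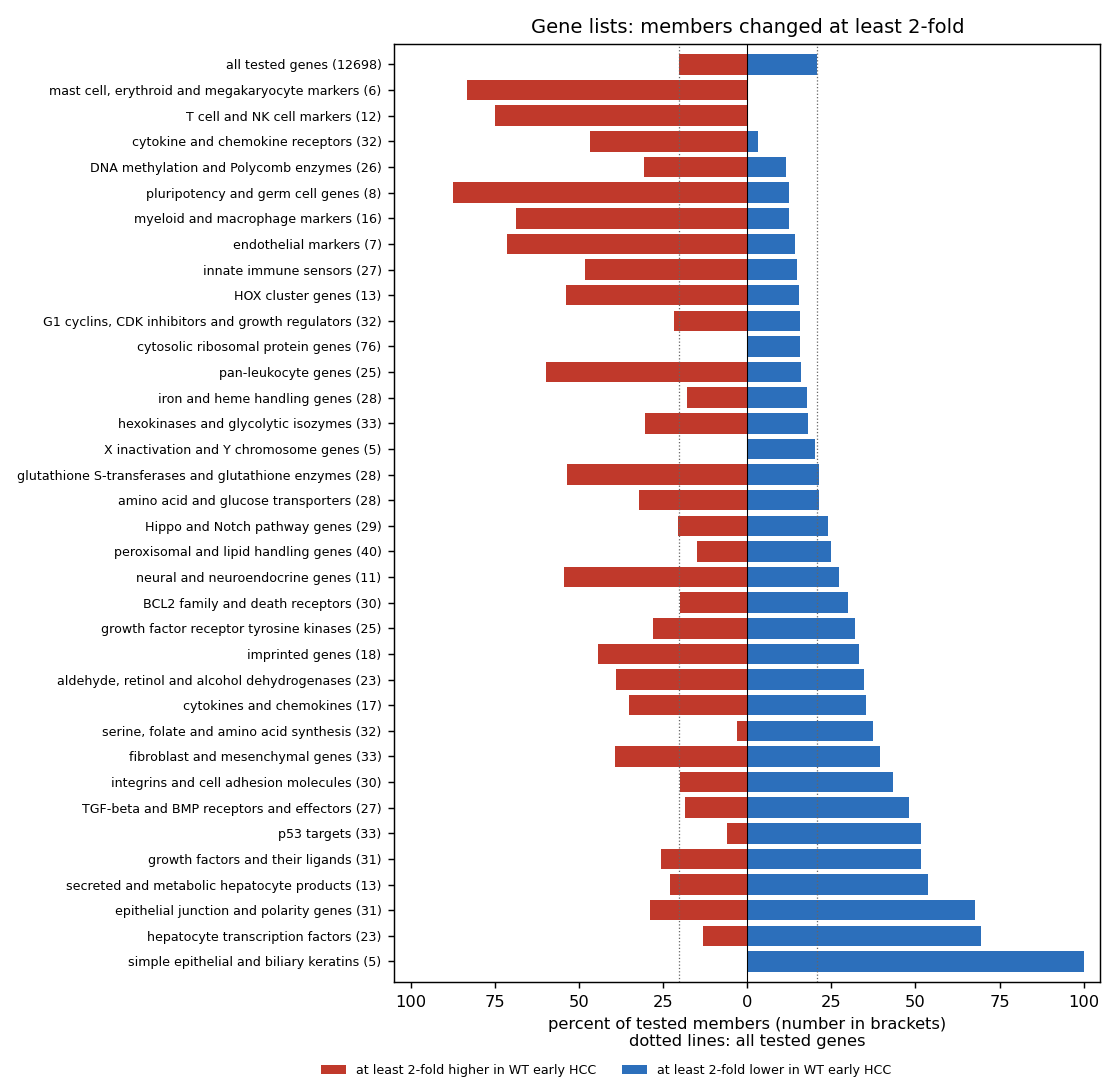
Share of the tested members of each gene list (in percent, number tested in brackets) that were called and at least 2-fold higher in WT early HCC (red, to the left) or at least 2-fold lower (blue, to the right); lists with at least 5 tested members are drawn, and dotted lines mark the shares over all 12698 tested genes, 20.3% and 20.7%. Keratins, hepatocyte factors and junction genes lie at the blue end, while pluripotency and germ cell genes and T and NK cell markers have the longest red bars beside the small mast and erythroid list. Members that passed the filter on low counts through WT early HCC alone, Eomes and Sox2 among them, could only be higher.

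Transporters held some of the largest gains in level. Slc38a1, an importer of glutamine and other small neutral amino acids, was at 2623, 2579 and 2566 CPM in libraries of WT early HCC, against 3.25, 2.20 and 2.23 CPM in those of normal liver, 1011-fold higher (log2 fold change 9.98, SE 0.07, edgeR adjusted p = 2.2e-22). Its relative Slc38a2 had 2285 CPM in WT early HCC against 542 CPM in normal liver, and Slc38a4 had 5.81 CPM in WT early HCC against 0 CPM in normal liver. Slc7a5, which carries leucine and other large amino acids, was at 1859, 1947 and 2014 CPM in libraries of WT early HCC, against 495, 462 and 485 CPM in those of normal liver, 4.04-fold higher. Slc16a1, a carrier of lactate and pyruvate, was at 904, 878 and 847 CPM in libraries of WT early HCC, against 140.0, 142 and 141 CPM in those of normal liver, 6.22-fold higher. Over the whole list 11 of 28 tested genes were higher, 11 lower and 6 not called, near the 43.8% and 43.3% over all tested genes. Slc2a5, a fructose carrier, fell, with 0.207 CPM in WT early HCC against 5.56 CPM in normal liver.

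Amino acid synthesis mostly fell: of 32 tested genes of serine, folate and amino acid synthesis 24 fell, 4 rose and 4 were not called. Their median log2 fold change was -0.77. Shares over all tested genes were 43.3% lower and 43.8% higher. Ahcy, which clears the product of methylation reactions, was at 3.50, 4.09 and 3.60 CPM in libraries of WT early HCC, against 71.8, 78.2 and 79.4 CPM in those of normal liver, 20.5-fold lower in WT early HCC (log2 fold change -4.35, SE 0.08, edgeR adjusted p = 6.42e-18). Psat1, an enzyme of serine synthesis, had 462 CPM in WT early HCC against 1099 CPM in normal liver. Cbs, which starts the route from homocysteine to cysteine, had 0.0946 CPM in WT early HCC against 5.92 CPM in normal liver. Bcat2, which starts the breakdown of branched-chain amino acids in mitochondria, rose, with 21.99 CPM in WT early HCC against 1.03 CPM in normal liver. Of 33 tested genes of glucose breakdown 13 rose and 19 fell. Pklr, the pyruvate kinase of liver and red cells, was at 0.0594, 0 and 0.0562 CPM in libraries of WT early HCC, against 61.9, 57.99 and 54.9 CPM in those of normal liver, with a ratio of scaled counts of 1528, 95% interval 423 to 12626, lower in WT early HCC. Aldoc, the brain aldolase, rose, with 15.2 CPM in WT early HCC against 0.512 CPM in normal liver, and Pgam2, the muscle phosphoglycerate mutase, rose, with 8.75 CPM in WT early HCC against 0.366 CPM in normal liver.

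Retinoid and aldehyde enzymes split near the shares over all tested genes, 43.8% higher and 43.3% lower, with 11 of 23 tested higher and 11 lower. Aldh1a1, which makes retinoic acid, fell to 0.0594, 0.0560 and 0.225 CPM, against 54.8, 57.7 and 54.7 CPM in normal liver, 492-fold lower. Cyp26b1, which breaks retinoic acid down, rose, with 19.3 CPM in WT early HCC against 2.80 CPM in normal liver. Aldh2, the main acetaldehyde enzyme, had 235 CPM in WT early HCC against 48.1 CPM in normal liver (log2 fold change 2.29, SE 0.04, edgeR adjusted p = 1.38e-17). Glutathione enzymes leaned upwards, 18 of 28 tested higher and 9 lower, with a median log2 fold change of 1.22. Gstt3 had 11.5 CPM in WT early HCC against 0.0184 CPM in normal liver and Gpx1, a glutathione peroxidase, had 268 CPM in WT early HCC against 75.7 CPM in normal liver; the transferases share sequence, so single values of these are uncertain.

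Lipid and iron genes moved in both directions. Of 40 tested peroxisomal and lipid genes 19 fell, 14 rose and 7 were not called. Their median log2 fold change of -0.07 went to 0.00 with upper quartile scaling. Over all tested genes 43.3% fell and 43.8% rose. Fabp5, a fatty acid carrier, was at 0, 0.224 and 0.281 CPM in libraries of WT early HCC, against 80.2, 83.4 and 77.6 CPM in those of normal liver, 478-fold lower in WT early HCC (log2 fold change -8.82, SE 0.16, edgeR adjusted p = 4.33e-18). Plin2, the coat of lipid droplets, had 106 CPM in WT early HCC against 441 CPM in normal liver. Of 28 tested iron and heme genes 16 fell and 10 rose. Cp, ceruloplasmin, the copper oxidase that helps iron leave cells, was at 3.15, 3.25 and 3.48 CPM in libraries of WT early HCC, against 398, 427 and 395 CPM in those of normal liver, 124-fold lower in WT early HCC (log2 fold change -6.94, SE 0.07, edgeR adjusted p = 3.25e-21). Slc40a1, the iron exporter ferroportin, had 0.0375 CPM in WT early HCC against 30.3 CPM in normal liver, and Trf, transferrin, had 0.227 CPM in WT early HCC against 27.5 CPM in normal liver. Slc48a1, a heme transporter, rose, with 322 CPM in WT early HCC against 58.7 CPM in normal liver, and the ferritin chains parted, with Ftl1 at 437 CPM in WT early HCC against 1676 CPM in normal liver and Fth1 at 2444 CPM in WT early HCC against 2003 CPM in normal liver.

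Ribosomal protein genes leaned downwards by a small step. Of 76 tested genes 51 fell, 17 rose and 8 were not called, where 43.3% of all tested genes fell and 43.8% rose. The median log2 fold change was -0.43, and 12 were at least 2-fold lower. Rps6 was the lowest relative to normal liver, at 15.3, 15.3 and 15.1 CPM in libraries of WT early HCC, against 74.1, 67.4 and 71.3 CPM in those of normal liver, 4.66-fold lower in WT early HCC (log2 fold change -2.22, SE 0.06, edgeR adjusted p = 7.42e-16). Rps23 rose, with 1443 CPM in WT early HCC against 797 CPM in normal liver. The many pseudogene copies of these genes make single values uncertain.

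Some of the largest folds were in genes outside these lists. Gatm, the first enzyme of creatine synthesis, was at 127, 120.4 and 115 CPM in libraries of WT early HCC, against 0, 0.0551 and 0 CPM in those of normal liver, with a ratio of scaled counts of 6597, 95% interval 1184 to 260621, higher in WT early HCC (log2 fold change 12.22, SE 0.17, edgeR adjusted p = 1.31e-19). F2r, the thrombin receptor, was at 136, 131 and 125 CPM in libraries of WT early HCC, against 0.110, 0 and 0 CPM in those of normal liver, with a ratio of scaled counts of 3567, 95% interval 987 to 29459, higher in WT early HCC. Amigo2, a neural adhesion molecule, had 139 CPM in WT early HCC against 0.0365 CPM in normal liver. Pnma5, a paraneoplastic antigen gene of the X chromosome, had 146 CPM in WT early HCC against 0.0365 CPM in normal liver, and Tesc, a calcium-binding protein, had 57.7 CPM in WT early HCC against 0.0184 CPM in normal liver. These genes were read in each WT early HCC library and had at most 1 or 2 counts over the normal liver libraries.

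In the other direction Zscan26, a zinc finger gene, had 0 counts in all WT early HCC libraries and 74.2, 77.04 and 72.8 CPM in normal liver, at least 1307-fold lower (log2 fold change -13.38, SE 0.20, edgeR adjusted p = 2.07e-17). Trpa1, an ion channel that senses irritants, was at 0.0594, 0 and 0 CPM in libraries of WT early HCC, against 100.9, 106 and 98.3 CPM in those of normal liver, with a ratio of scaled counts of 5338, 95% interval 958 to 210880.0, lower in WT early HCC. Efemp1, a fibulin of the matrix, had 0.0561 CPM in WT early HCC against 167 CPM in normal liver, and Ugt2b34, a glucuronosyl transferase of the liver, had 0.0198 CPM in WT early HCC against 67.1 CPM in normal liver. Plac8, a small protein first found in placenta, was at 0.237, 0.0560 and 0.112 CPM in libraries of WT early HCC, against 348, 364 and 351 CPM in those of normal liver, 2617-fold lower (log2 fold change -11.30, SE 0.11, edgeR adjusted p = 2.36e-21).

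By difference in level, the gains included predicted genes of no known function. Pik3c3, a lipid kinase of autophagy, was at 9207, 9602 and 10143 CPM in libraries of WT early HCC, against 808, 788 and 749 CPM in those of normal liver, 12.3-fold higher, and the predicted gene Gm39972 had 11832 CPM in WT early HCC against 3533 CPM in normal liver. Another predicted gene, Gm39701, had 9949 CPM in WT early HCC against 2574 CPM in normal liver. Where the reads counted for these genes came from was not tested. Hspa8, a chaperone, had 3779.5 CPM in WT early HCC against 1594 CPM in normal liver. Among the losses, Ahnak, a scaffold of the cell cortex, was at 2528, 2605 and 2643 CPM in libraries of WT early HCC, against 5833, 6258 and 5939 CPM in those of normal liver, 2.32-fold lower, and Myof, a membrane repair protein, was at 414, 409 and 418 CPM in libraries of WT early HCC, against 2402, 2429.6 and 2429 CPM in those of normal liver, 5.85-fold lower (log2 fold change -2.55, SE 0.03, edgeR adjusted p = 5.13e-20). Tpt1, a growth-related protein, had 964 CPM in WT early HCC against 2817 CPM in normal liver. Eif3a, a translation initiation factor, had 849 CPM in WT early HCC against 2342 CPM in normal liver, and Nars, a tRNA synthetase, had 535 CPM in WT early HCC against 1882 CPM in normal liver.

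Genes were also counted by whether 1 group lacked them. A mean of at least 1 CPM in WT early HCC with 3 counts or fewer over the normal liver libraries was found for 416 genes, 17 of them at 50 CPM or more. The reverse held for 250 genes, 32 of them at 50 CPM or more. The second number is a minimum, because of how the table was made. The 3 libraries of early HCC cells without Mef2d, which entered no test here, gave at least 1 CPM for 356 of the 416 genes and 3 counts or fewer for 6 of them. Of the 250 genes lacking in WT early HCC, 171 had 3 counts or fewer in the libraries without Mef2d and 8 reached 1 CPM.

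Chromosomes differed in their median change. On chromosome 19 the median log2 fold change over 459 tested genes differed from that of all genes by -0.93, and 82.4% of the genes lay below the median of all genes. Taken for each of the 3 WT early HCC libraries, such a difference had an SD of 0.03. It used log2 of CPM plus 0.1 against the mean over normal liver libraries, so spread among the latter is left out. On that chromosome 209 genes were at least 2-fold lower in WT early HCC and 45 at least 2-fold higher. Windows of 10 Mb along it had medians from -0.69 to -1.79, all below that of all genes. Chromosome 18 followed with -0.58 and the X chromosome with -0.34. At the other end chromosome 14 stood at 0.50, chromosome 17 at 0.36 and chromosome 9 at 0.32. Genes named above lie on chromosome 19, among them Ahnak, Myof, Ankrd1, Aldh1a1, Psat1 and Rbp4. The cause of these shifts was not tested.

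**Figure D5:**
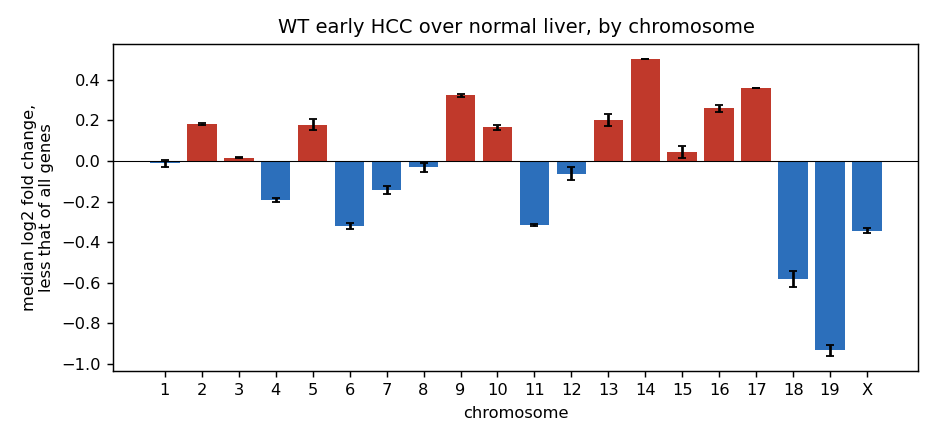
Median log2 fold change of WT early HCC over normal liver for the tested genes of each chromosome, less the median of all tested genes (vertical axis), by chromosome (horizontal axis); bars are medians and error bars the SD over the 3 WT early HCC libraries. Chromosome 19 lies lowest at -0.93 and chromosome 14 highest at 0.50. Error bars come from log2 of CPM plus 0.1 per library against the normal liver mean, and leave out spread among normal liver libraries.

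Runs of neighbouring genes lacking in 1 group were looked for as well. With a floor of 3 counts no run of 4 or more neighbours was found. With a floor of 10 counts, added after the values were seen, 1 run of 5 genes appeared on chromosome 4, with Smim1 and Dffb among them. Smim1, a red cell membrane protein gene, was at 0.0594, 0.0560 and 0.0562 CPM in libraries of WT early HCC, against 72.7, 65.4 and 70.3 CPM in those of normal liver, with a ratio of scaled counts of 1216, 95% interval 416 to 5898, lower in WT early HCC. Dffb, the nuclease that cuts DNA in apoptosis, had 0.0187 CPM in WT early HCC against 5.91 CPM in normal liver. In early HCC cells without Mef2d the 5 genes averaged between 2.21 and 31.5 CPM (3 libraries, scaled by library total).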

How the data were processed

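Total RNA was extracted with TRIzol and poly(A) libraries were made with a stranded kit, per the labels' protocols. The submitters' processing notes name FastQC, HISAT, RSEM and the build mm10, without roles; versions, annotation and the use of strand in counting are not given in the sources. The authors deposited RSEM expected counts per gene, which were rounded to whole counts here. The table holds genes with a count in at least 1 early HCC library, KO or WT. Symbols that a spreadsheet had turned into dates were restored for 25 rows, and 99.7% of gene IDs matched the RefSeq table of GRCm38.p6.

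Counts of the 6 libraries were scaled by TMM, filtered with filterByExpr and tested with edgeR 4.0.16 (glmQLFit and glmQLFTest, R 4.3.3, Benjamini-Hochberg over 12698 genes, threshold 0.05, 2-sided). Scaling factors ran from 0.983 to 1.02. Alternatives were DESeq2 1.42.0, other scalings, no filter, a replicate block, a test against 1.5-fold and leaving out each library. Intervals are exact 95% intervals for a ratio of counts; intervals and floors cover counting error only. Each library counted as 1 sample. Pairs of replicates differed by more than sampling noise, which does not show that they came from separate mice or cultures. Predicted genes, gene families with near-identical copies and overlapping genes have uncertain single values.

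The gene lists and the members to describe were chosen with earlier results of these data known. Named genes follow a rule: Mef2d, Hnf4a and Slc2a3, the 12 largest fold changes each way among called genes at 50 CPM or more in the higher group, the 12 largest CPM differences each way among called genes of at least 2-fold, 3 called members each way and the 2 most abundant of each list, and defining markers. Other genes named were chosen after their values were seen: Adgre1, Cav1, Cd4, Cd5, Cd53, Cebpb, Col4a1, Dffb, Dnmt3a, Evpl, Fn1, Gata4, Gata6, Gpx1, Ikzf1, Il7r, Itgal, Krt23, Lamb3, Met, Nr1h4, Onecut2, Pkp3, Rhox5, Ring1, Rnf2, Rxra, Slc16a1, Slc7a5, Smad4, Smim1, Snai1, Snai2, Spi1, Thy1, Was, Yap1 and Zap70. The Kupffer cell table entered no test. Some genes are not reported here.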

Additional observations from a re-analysis of the deposited data

How the results depend on the processing

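The numbers of called genes kept within 1.5 times of 5568 higher and 5498 lower in WT early HCC under other scalings, no filter and DESeq2. A test against a 1.5-fold change called 3401 higher and 3470 lower. Leaving out 1 library at a time gave 5487 to 5611 higher and 5415 to 5502 lower genes. The replicate numbers did not pair the libraries, since same-numbered libraries correlated at -0.122, -0.017 and 0.076 in their deviations from the group means, and a fit with the number as a replicate block called 5471 higher and 5438 lower. With a floor of 10 counts, genes read in WT early HCC and at the floor in normal liver numbered 646, and genes read in normal liver and at the floor in WT early HCC numbered 486; with a mean of at least 5 CPM asked for, the first number was 211. These changes follow from the wider or stricter definition. The floor of 10 counts also gave the 1 run of neighbouring genes. Scalings and DESeq2 moved the median log2 fold change of all genes by at most 0.09. Of 291 named genes tested, 11 changed call or direction under some alternative, among them Csf1r (log2 fold change of Csf1r -1.17 and called without WT early HCC replicate 3) and Srebf1 (log2 fold change of Srebf1 0.11 and called without WT early HCC replicate 1). Of 76 list counts 11 moved by over 1.5 times under some alternative; the X inactivation and Y chromosome genes had 1 member lower in place of 2 under 3 scalings, and without the filter, members higher among cytokines and chemokines numbered 15 in place of 8. The log2 fold change of Eif2s3x, an X-linked translation factor gene, turned to -0.0060 without the filter, and without 1 library it ran from -0.012 to 0.024. The chromosome 3 median less the median of all genes turned to -0.029 without the filter and -0.025 with DESeq2, and the chromosome 8 median less the median of all genes to 0.0056 and 0.0057. Besides these 4, 66 chromosome medians under an alternative moved by more than the spread between libraries and 170 did not. The cause was not tested.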
